A study of Mus musculus with 6 samples.

Results

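The 7 genes Gpr155, Wwc1, Adck3, Uhmk1, Heca, Megf9 and Tns1 were picked from a table of 23284 mouse genes because they were much lower in noggin-expressing parietal cells of the stomach than in control parietal cells. The rule asked that all 3 noggin values lie under 0.5 times the lowest control value. In the deposited values 6 of the 7 meet it. Adck3 does not, because its value of 27.3 in noggin replicate 2 exceeds the 25.5 that the rule allows, and it is kept here as a listed gene. Among the 10644 genes that could be tested, 142 met the rule, a background of 1.33%. The mirrored rule, with the lowest noggin value over 2 times the highest control value, was met by 213 genes, or 2.00%. Because these 6 libraries chose the genes, their differences between the groups are given as a description with no test.

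Parietal cells secrete acid through the H+/K+ ATPase. Noggin is a secreted protein that binds bone morphogenetic proteins (BMPs) and keeps them from their receptors. The control cells came from mice with the genotype label Transgenic-Tom, in which a Rosa26-tdTomato reporter marks the cells red. The noggin cells came from mice labelled Transgenic-Tom-nog, bred to carry H+/K+-Cre, H+/K+-Nog and Rosa26-tdTom. The control label does not spell out a Cre allele. The H+/K+ promoter is active in parietal cells, so both the noggin transgene and the Cre that acts on the reporter depend on a parietal cell promoter. Red cells of both groups were sorted by flow cytometry, and there were 3 libraries in each group. No source used here gives age, strain or the number of animals behind a library, so the p-values below measure the spread between these libraries.

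All values are FPKM, a read density corrected for gene length and for library total, which allows levels of different genes to be compared. The number of reads behind a value is unknown, so no counting interval can be given. Total FPKM lay between 595736 and 669124 in control libraries and between 797168 and 1188186 in noggin libraries. Noggin replicate 3 stood apart, with 542 of the tested genes listed at 0 against 19 to 34 in each other library. The Nog transcript itself was between 0.871 and 1.97 FPKM in the control libraries and between 2281 and 2734 FPKM in noggin libraries. The defining parietal genes Atp4a and Atp4b were between 13385 and 21416 FPKM in the control libraries and between 5433 and 25184 FPKM in noggin libraries.

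The 7 genes have no single function in common that is established. Gpr155 encodes a multi-pass membrane protein of the lysosome, also called LYCHOS, which senses cholesterol and acts on mTORC1, the kinase complex that couples nutrients to growth. Wwc1 encodes KIBRA, an upstream adaptor of the Hippo pathway, in which the LATS kinases restrain the co-activators YAP and TAZ. Adck3, now called Coq8a, encodes a mitochondrial UbiB family protein needed to make coenzyme Q, the electron carrier of the respiratory chain. Uhmk1 encodes a serine/threonine kinase with a U2AF homology motif that phosphorylates the splicing factor SF1 and the cell cycle inhibitor p27. Heca is the mammalian homologue of Drosophila headcase, a gene of tracheal and imaginal cell development in the fly. Megf9 encodes a membrane protein with EGF-like domains. Tns1 encodes tensin 1, which ties integrins to actin at focal and fibrillar adhesions.

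Gpr155 was at 54.5, 58.6 and 68.4 FPKM in control replicates 1, 2 and 3 and at 9.36, 13.5 and 25.2 FPKM in noggin replicates 1, 2 and 3. The groups did not overlap, and noggin replicate 3 was the highest of its group. The means were 60.5 ± 7.13 and 16.0 ± 8.19 FPKM (SD, n = 3 each), so that 26.5% of the control level was present in noggin cells. Its difference in log2(FPKM + 1) was -1.96. With each library left out in turn it ran from -2.32, without noggin replicate 3, to -1.65, without noggin replicate 1.

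Wwc1 was at 48.3, 55.1 and 53.1 FPKM in the control replicates and at 11.3, 19.6 and 14.4 FPKM in the noggin replicates. The noggin libraries all lay below the controls, and noggin replicate 2 was the least reduced. The noggin mean of 15.1 ± 4.20 FPKM was 28.9% of the control mean of 52.1 ± 3.49 FPKM (SD, n = 3 each).

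Adck3 was at 67.4, 51.0 and 68.8 FPKM in the control replicates and at 13.5, 27.3 and 16.1 FPKM in the noggin replicates. Here the lowest control, replicate 2, and the highest noggin library, replicate 2, came closest to each other, with a ratio of 0.5348. The means were 62.4 ± 9.88 and 18.9 ± 7.33 FPKM (SD, n = 3 each), or 30.4% of the control level. Adck3 shares its locus with Cdc42bpa, which lies on the opposite strand and averaged 0.899 ± 0.183 FPKM in control and 0.266 ± 0.240 FPKM in noggin libraries (SD, n = 3 each). The labels do not say that strand was kept, so reads where the loci overlap cannot be assigned to a strand. The same holds for Gpr155 and Uhmk1, which GENCODE overlaps with antisense genes that have no row in the table.

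Uhmk1 had the tightest controls, at 7.68, 7.93 and 8.27 FPKM, and stood at 1.81, 1.43 and 0.922 FPKM in noggin replicates 1, 2 and 3. Its noggin mean of 1.39 ± 0.446 FPKM was 17.5% of the control mean of 7.96 ± 0.293 FPKM (SD, n = 3 each), the lowest share among the 7 genes. Heca was at 8.86, 7.76 and 9.83 FPKM in the control replicates and at 1.38, 3.20 and 1.38 FPKM in the noggin replicates. Noggin replicate 2 was again the least reduced, and the Heca groups did not overlap. Heca kept 22.5% of its control level, with means of 8.82 ± 1.04 and 1.98 ± 1.05 FPKM (SD, n = 3 each).

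Megf9 was at 5.82, 7.52 and 7.83 FPKM in the control replicates and at 0.902, 2.07 and 1.44 FPKM in the noggin replicates. Control replicate 1 was the lowest of its group and still lay above every noggin library. Megf9 kept 20.8% of its control level, with means of 7.06 ± 1.08 and 1.47 ± 0.583 FPKM (SD, n = 3 each). Tns1 was at 15.6, 18.2 and 22.8 FPKM in the control replicates and at 5.80, 4.67 and 2.76 FPKM in the noggin replicates. Its noggin mean of 4.41 ± 1.54 FPKM was 23.3% of the control mean of 18.9 ± 3.66 FPKM (SD, n = 3 each). Tensin 1 is well known in smooth muscle and fibroblasts. Of 7 stromal markers, 6 (Col1a1, Col1a2, Col3a1, Acta2, Myh11 and Des) were under 1 FPKM in every library. The other, Tagln, was the only 1 that could be tested. It had a negative log2 fold change and was not called. The summed stromal level was 0.937 to 1.31 FPKM in control libraries and 0.249 to 1.79 FPKM in noggin ones. The part of such cells in the Tns1 level was not tested.

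**Figure D1:**
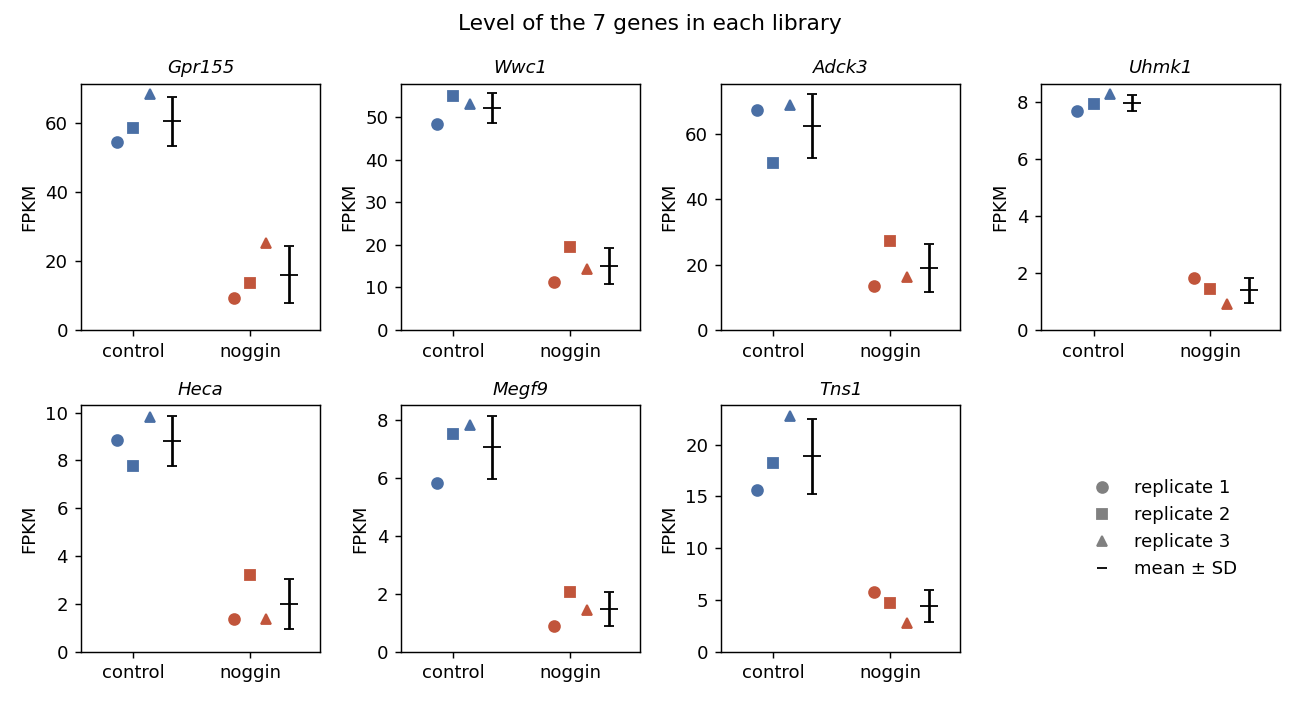
FPKM (vertical axis, from 0) of each of the 7 genes in the 3 control and 3 noggin libraries, with the replicate shown by the marker and the mean ± SD beside each group. In every panel the 3 noggin libraries lie below the 3 control libraries.

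In all 7 genes every noggin library was below every control library, as it was in 18.0% of the tested genes. The rule fixes that order for the 6 genes that meet it. The log2 differences lay within a narrow span, from -1.96 for Gpr155 to -1.72 for Adck3 and Megf9, with a median of -1.77 against -0.03 over all tested genes. On this scale the change of the genes below 10 FPKM is understated, since 1 is added to each value. In plain ratios of the means the control level was 5.73 times the noggin level for Uhmk1, 4.80 times for Megf9, 4.44 times for Heca, 4.28 times for Tns1, 3.78 times for Gpr155, 3.46 times for Wwc1 and 3.29 times for Adck3. Ranked from the lowest log2 difference among all tested genes, the 7 stood between place 51 (Gpr155) and place 113 (Adck3), so other genes were reduced more. At the edge of the rule, Azi1 and Zadh2 lay just inside with ratios of the highest noggin to the lowest control value of 0.4988 and 0.4997, and Heatr1 and Bahd1 just outside with 0.5003 and 0.5004.

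By level the genes fell into 3 tiers in control cells. Adck3, Gpr155 and Wwc1 were at 62.4, 60.5 and 52.1 FPKM, and neighbours in this order overlapped between libraries. Tns1 at 18.9 FPKM overlapped with neither neighbour. Heca, Uhmk1 and Megf9 followed at 8.82, 7.96 and 7.06 FPKM, again with overlap between neighbours. In noggin cells Adck3, Gpr155 and Wwc1 were still the highest, at 18.9, 16.0 and 15.1 FPKM and with overlapping libraries. Tns1, Heca, Megf9 and Uhmk1 then formed a chain in which each overlapped with the next, from 4.41 down to 1.39 FPKM.

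The noggin libraries did not reduce the 7 genes to the same extent. As a share of the control mean, the median over the 7 genes was 21.6% in noggin replicate 1, 29.3% in replicate 2 and 20.4% in replicate 3. Replicate 2 held the highest value of its group for Wwc1, Adck3, Heca and Megf9, at 37.6%, 43.7%, 36.3% and 29.3% of control. Replicate 3 held the highest for Gpr155, at 41.6%, and the lowest for Uhmk1 and Tns1, at 11.6% and 14.6%. Gpr155 and Tns1 thus ordered the 3 noggin libraries in opposite ways.

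**Figure D2:**
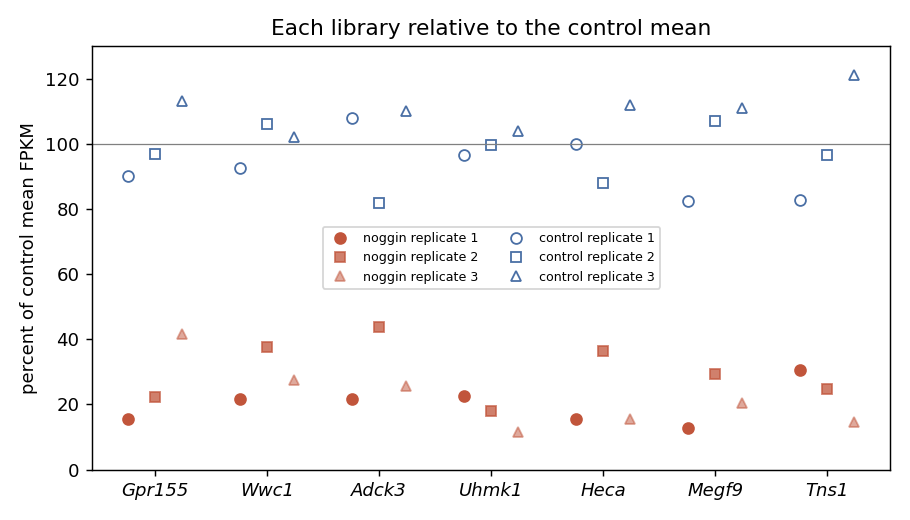
Each library's FPKM as a percent of the control mean (vertical axis) for the 7 genes, with open blue markers for control and filled red markers for noggin libraries. The noggin values run from 11.6% for Uhmk1 to 43.7% for Adck3, and noggin replicate 2 is the highest of its group for 4 of the 7 genes.

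The H+/K+ ATPase gives a reference within the same cells. For its catalytic subunit Atp4a the log2 fold change was -1.21 (SE 0.409, limma adjusted p = 0.124), and that of its other subunit Atp4b was 0.22 (SE 0.540, limma adjusted p = 0.814), so neither passed the test. Atp4a was called lower by limma after rescaling (-1.93, adjusted p = 0.0283), quantile normalization (-1.77, adjusted p = 0.0208), the coding length correction described below (-0.94, adjusted p = 0.045) and without noggin replicate 2 (-1.36, adjusted p = 0.0417). Over all its alternatives the adjusted p ran from 0.0208 to 0.451. Under quantile normalization the median difference of the 7 genes was -1.82, close to that of Atp4a. Relative to Atp4a the 7 genes were lower in noggin libraries by a mean log2 ratio of -0.56 for Adck3, -0.61 for Wwc1, -0.82 for Gpr155, -0.94 for Tns1, -1.06 for Heca, -1.12 for Megf9 and -1.36 for Uhmk1. For 6 of the 7 every noggin ratio was below every control ratio, as for 0.893% of tested genes, and nothing is read from this count since the 7 were chosen in the same libraries. Gpr155 was the exception, since its log2 ratio to Atp4a in noggin replicate 3, -7.84, lay among the controls at -7.97 to -7.83. Relative to Atp4b the differences were larger, from -2.0 for Adck3 to -2.79 for Uhmk1, with no overlap in any of the 7, as in 25.0% of tested genes. The selection fixes that lack of overlap, because Atp4b in every noggin library (21468 FPKM or more) was above every control library (21416 FPKM or less). The coding transcripts of Atp4a and Atp4b measure 3485 and 1378 bases. Tested genes of those length classes had median log2 differences of -0.27 and 0.41, against -0.48 and -0.52 in the classes of the 7. The part of this length trend, described below, in the ratios was not tested. In these sorted bulk samples, fewer parietal cells and less RNA per cell cannot be told apart. Markers of mucous neck cells and leukocytes moved with the groups, without overlap of their sums, and so did the sum of chief cell markers, while the sums of pit, endocrine and endothelial markers overlapped. The 5 mucous neck cell markers summed to 2456 to 3362 FPKM in control libraries and 10765 to 25864 FPKM in noggin ones, all 5 called higher. The 5 chief cell markers summed to 60875 to 111888 and 131205 to 357567 FPKM with none called, and the 4 pit cell markers to 9170 to 13966 and 9098 to 23640 FPKM with none called. Of the chief cell markers 4 had a positive log2 fold change and 1 a negative one, and of the pit cell markers 3 and 1. The 6 endocrine markers summed to 441 to 2678 and 1893 to 28591 FPKM, with 2 called higher. The 9 leukocyte markers summed to 1.36 to 2.48 and 14.4 to 47.6 FPKM, with 1 of 4 tested called higher. The 3 endothelial markers summed to 0.175 to 0.383 and 0.355 to 5.70 FPKM, with Cdh5 listed at 0 in every library. The 7 parietal markers summed to 31467 to 38543 FPKM in control libraries and 27870 to 31195 FPKM in noggin ones, also without overlap. Of these 7 markers, 6 had a negative log2 fold change and 1 a positive one, with 2 called lower. The part of these shifts in the lower levels of the 7 genes was not tested.

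All 7 transcripts are long, a property that the rule did not use. In GENCODE M21, on the same build as the mm10 named by the submitters, the transcript with the longest coding sequence measures 4026 bases for Adck3, 4531 for Wwc1, 5061 for Gpr155, 5098 for Heca, 7864 for Uhmk1, 7924 for Megf9 and 9966 for Tns1. The median of the 10159 tested genes with such a transcript is 2817 bases, and 28.1% of them reach the 4000 bases that all 7 exceed. Length was not particular to the 7: the other 125 genes that met the rule and have a coding transcript had a median of 4985 bases, against 5098 for the 7, and 69.6% of them reached 4000 bases. Much of that length lies in the 3′ untranslated region. It makes up 82.0% of the Uhmk1 transcript, 75.9% of Megf9, 62.4% of Heca, 48.0% of Adck3, 43.2% of Tns1, 38.6% of Gpr155 and 17.2% of Wwc1. The median 3′ untranslated region of the 7 is 3181 bases, against 903 over the tested genes and 1429 over those 125 other genes. Wwc1, at 781 bases, is below the median of the tested genes. Tns1 owes its length to its coding sequence of 5664 bases as well, spread over up to 35 exons.

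Across tested genes the difference between the groups followed length. The median log2 difference was 0.87 for transcripts under 1000 bases, -0.01 from 2000 to 3000 bases, -0.48 from 4000 to 6000 bases and -0.52 from 6000 bases on. The Spearman correlation of the log2 difference with coding transcript length was -0.564 across 10159 genes, which share their libraries and are not independent. Across the same genes it was -0.540 with coding sequence length and weaker, at -0.324, with the length of the 3′ untranslated region. The share of genes that met the rule went from 0.14% in the shortest class to 4.06% in the longest. Gpr155, Wwc1, Adck3 and Heca fall in the class from 4000 to 6000 bases, and Uhmk1, Megf9 and Tns1 in the longest. Against the median of its own class the 7 genes stood apart by -1.48 (Gpr155) to -1.20 (Megf9) on the log2 scale. Between 0.396% (Uhmk1) and 2.06% (Adck3) of the genes of the same class were lower still. Nothing is read from these places, since the 7 were chosen as low in the same libraries. After the length trend of each library was removed with the coding transcript length, a correction chosen after the data were seen, the 7 log2 differences ran from -1.48 for Gpr155 to -1.22 for Megf9, with a median of -1.35. Wwc1, Uhmk1, Megf9 and Tns1 then still met the rule and Gpr155, Adck3 and Heca did not, while the number of tested genes with a coding transcript that met it went from 131 to 52. The planned correction used the median length of all annotated transcripts of a gene. That length is only 528, 685 and 728 bases for Adck3, Tns1 and Wwc1. With it the 7 differences ran from -2.05 for Adck3 and Tns1 to -1.21 for Megf9, with a median of -1.60. Gpr155 and Adck3 then did not meet the rule, and 137 of 10542 genes did. The outcome thus depends on which length is used. The cause of the length trend was not tested.

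**Figure D3:**
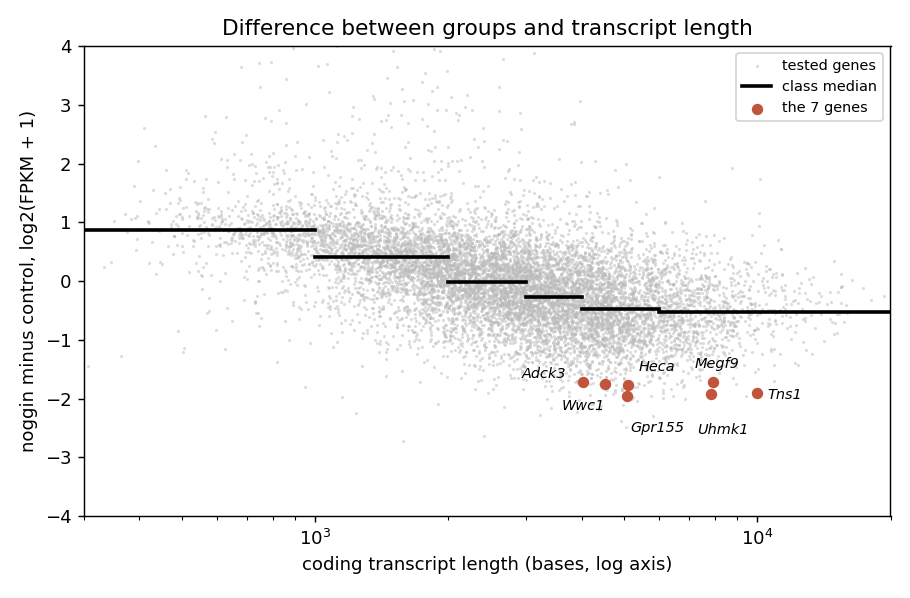
Log2 difference between noggin and control (vertical axis, FPKM + 1) against coding transcript length in bases (horizontal log axis) for 10146 tested genes in grey, with the median of each length class as a black line and the 7 genes in red. A further 13 genes lie outside the axes. The 7 genes sit at 4026 bases or more and below the class medians of -0.48 and -0.52.

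**Figure D4:**
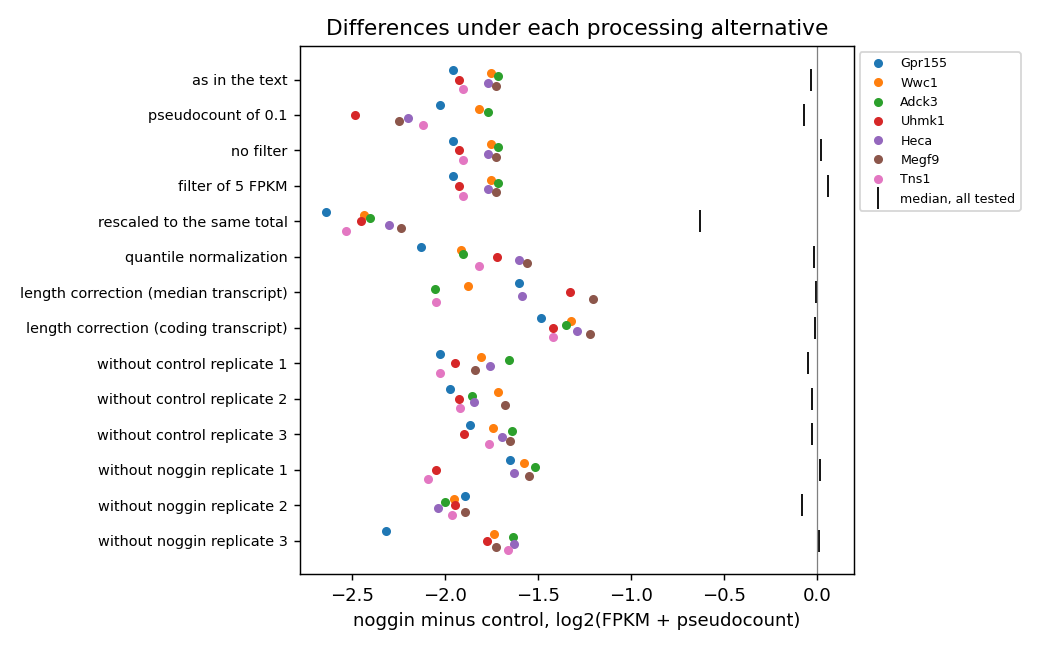
Log2 difference between noggin and control (horizontal axis, FPKM + pseudocount) of the 7 genes, 1 colour each, under the setting of the text and 13 alternatives, with the median of all tested genes as a black bar. The 7 genes stay below 0 throughout, from -2.64 for Gpr155 after rescaling to -1.21 for Megf9 with the median length correction.

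The genes lie on 5 chromosomes, all transcribed from the minus strand, as are 49.9% of the tested genes with a known position. In mm10 coordinates Gpr155 lies on chromosome 2 (73341506 to 73386572), Wwc1 on chromosome 11 (35838400 to 35980527), Heca on chromosome 10 (17868612 to 17948067) and Megf9 on chromosome 4 (70427065 to 70534995). Chromosome 1 carries Tns1 (73910231 to 74124449), Uhmk1 (170193420 to 170215397) and Adck3 (180165238 to 180199602). To describe their promoters, the 250 bases before each RefSeq start (GRCm38.p6) were searched on both strands. The first listed start was used for Adck3 and Uhmk1, which have 2 each. A GC box, GGGCGG, was present in all 7, and in 58.6% of the promoter windows of tested genes and 32.7% of all 32851 windows. Copies may overlap, as a pair in Gpr155 does. Gpr155 held 7 copies, Megf9 5, Heca 4 and Tns1 3, and the others held 1 each. Not all of these lie before the GENCODE transcripts. For Gpr155, 4 copies lie in the 158 bases before its transcript. The Megf9 copies that begin at -72, -54 and -25 lie in its transcript or reach into it. The Adck3 window (180196021 to 180196270) lies inside the GENCODE locus of Adck3. The 7 windows ranged from 43.6% GC for Uhmk1 to 74.4% for Tns1, against a median of 60.0% for tested genes. CCAAT was found in 4 of 7 (35.7% of tested windows) and TATAAA in 0 of 7 (6.44%).

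A cyclic AMP response element, TGACGTCA, was found 2 times in Heca and in no other of the 7, where 2.7% of tested windows hold it. Its copies begin at positions -153 and -117 from the start. The E-box CACGTG was found in Megf9 alone (8.53% of tested windows). Of motifs tied to BMP signalling, GGCGCC was found in Heca alone (16.7% of tested windows), and GTCTAGAC in 0 of 7 (0.216%). The half-site of the estrogen-related receptors, AAGGTCA, was in 0 of 7 (2.83%). A match is a run of letters in this window and nothing more. The stretches of 4 promoters are shown, each 5′ to 3′ on the minus strand, for Gpr155 and Wwc1, the leading pair, and for Heca and Megf9, which hold the rarer motifs. Capitals mark GGGCGG or its reverse complement in the first pair, TGACGTCA in Heca and CACGTG in Megf9. The Gpr155 (chr2:73386573-73386730) and Megf9 (chr4:70534996-70535178) stretches end where the GENCODE transcripts begin, and the Wwc1 (chr11:35980528-35980777) and Heca (chr10:17948068-17948317) stretches are the full 250 bases.
Gpr155: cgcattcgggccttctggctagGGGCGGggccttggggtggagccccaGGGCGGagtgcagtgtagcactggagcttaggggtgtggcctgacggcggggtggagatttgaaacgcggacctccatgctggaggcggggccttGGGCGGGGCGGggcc
Wwc1: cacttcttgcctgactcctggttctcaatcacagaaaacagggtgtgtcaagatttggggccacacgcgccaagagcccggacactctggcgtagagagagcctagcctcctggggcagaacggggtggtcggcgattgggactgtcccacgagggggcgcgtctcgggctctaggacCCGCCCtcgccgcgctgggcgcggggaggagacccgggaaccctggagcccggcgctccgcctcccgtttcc
Heca: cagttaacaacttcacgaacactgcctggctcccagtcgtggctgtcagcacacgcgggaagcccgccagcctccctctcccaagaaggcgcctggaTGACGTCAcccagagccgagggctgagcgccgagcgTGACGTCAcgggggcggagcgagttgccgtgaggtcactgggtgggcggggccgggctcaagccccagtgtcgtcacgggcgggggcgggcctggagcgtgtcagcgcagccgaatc
Megf9: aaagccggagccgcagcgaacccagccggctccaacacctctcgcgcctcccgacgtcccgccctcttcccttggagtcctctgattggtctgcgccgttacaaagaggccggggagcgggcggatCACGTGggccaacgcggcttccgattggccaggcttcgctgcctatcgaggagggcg

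Genes of the same pathways were read from the fit over all genes (limma moderated test on log2(FPKM + 1), Benjamini-Hochberg adjusted over 10644 genes, called at an adjusted p under 0.05). In that fit 0.695% of all tested genes were called lower and 1.75% higher. Of 89 tested genes in 6 lists, 1 was called lower and 0 higher, and 27 had an unadjusted p under 0.05, as did 26.7% of all tested genes. Their median log2 fold change was -0.29, and 58 were negative and 31 positive, against 5501 and 5143 of all tested genes. The unadjusted counts of single lists below are read against the same share of 26.7% and are not results about a list. The selection rule was met by 4 of the 89 genes, against 1.33% of all tested genes. That share was 2.81% from 4000 to 6000 bases and 4.06% from 6000 bases on. The 4 genes are named below and are not a result about a list either.

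The list around Gpr155, of lysosomal nutrient sensing and mTORC1, had 31 tested genes with a median of -0.52, of which 1 fell and 30 did not pass. The gene that fell was Tsc2, the tuberin subunit of the complex that restrains mTORC1, at 23.8, 25.2 and 25.6 FPKM in the control replicates and 8.45, 11.1 and 5.77 FPKM in the noggin replicates (log2 fold change -1.49, SE 0.275, limma adjusted p = 0.0433). This call did not hold without control replicate 1, 2 or 3 or noggin replicate 1, where limma gave adjusted p-values of 0.195, 0.203, 0.259 and 0.068. It also ended with the coding length correction (log2 fold change -0.999, limma adjusted p = 0.0851). With the length correction by median transcript it held (log2 fold change -1.61, limma adjusted p = 0.0394). Tsc2 met the selection rule too, as did Depdc5, a subunit of the GATOR1 inhibitor of mTORC1, at 1.59 ± 0.184 and 0.591 ± 0.215 FPKM (SD, n = 3 each). Sec13, a subunit shared by GATOR2 and the COPII coat, was higher by 0.83 on the log2 scale (SE 0.168, limma adjusted p = 0.051) and did not pass, and Lamtor3 of the Ragulator complex 0.61 (SE 0.188, limma adjusted p = 0.111). Rescaling all libraries to one total turned Lamtor3 to -0.10 and left Sec13 at 0.12 (limma adjusted p = 0.688). Sec13 stood at 0.40 with quantile normalization (limma adjusted p = 0.154). With the coding length correction Sec13 and Lamtor3 stood at 0.34 and 0.08 (limma adjusted p = 0.261 and 0.851). Sec13 was called higher with the filter of 5 FPKM and without noggin replicate 2 (limma adjusted p = 0.0457 and 0.0224).

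The Hippo list around Wwc1 had 16 tested genes, of which 0 were called and 4 had an unadjusted p under 0.05, with a median of -0.29. The lowest p-values belonged to Mob1a and Mob1b, co-activators of the LATS kinases, at -1.09 and -0.91, and to the angiomotin-like gene Amotl2 at -0.92 (limma adjusted p = 0.101 to 0.131). Mob1a ranged from 16.4 to 17.7 FPKM in control and from 4.74 to 10.8 FPKM in noggin libraries, with no overlap. With the coding length correction Mob1a, Mob1b and Amotl2 stood at -0.67, -0.42 and -0.52 (limma adjusted p = 0.259, 0.491 and 0.313). The coenzyme Q list around Adck3 had 15 tested genes, 0 called and 2 with an unadjusted p under 0.05, with a median of 0.06. Its genes with the lowest p-values lay in the direction opposite to Adck3: Coq10b at 0.67, the hydroxylase gene Coq7 at 0.70 and the methyltransferase gene Coq3 at 0.96 (limma adjusted p = 0.131 to 0.206). Rescaling turned Coq10b and Coq7 to -0.01 each, so the sign of these 2 rests on the scaling. Coq10b, Coq7 and Coq3 also have shorter coding transcripts than Adck3, at 1733, 1215 and 2651 bases against 4026. With the coding length correction they stood at 0.38, 0.13 and 1.02 (limma adjusted p = 0.401, 0.71 and 0.285).

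The list of tensins and focal adhesion genes around Tns1 had 15 tested genes, 0 called and 7 with an unadjusted p under 0.05, with a median of -0.70. Tenc1, which encodes tensin 2, ranged from 21.2 to 24.9 FPKM in control libraries and read 11.8, 9.41 and 2.00 FPKM in the 3 noggin replicates (log2 fold change -1.69, SE 0.524, limma adjusted p = 0.111). Talin 1 (Tln1) and kindlin 2 (Fermt2), which activate integrins, were at -1.22 and -1.13 (limma adjusted p = 0.109 and 0.0916). The coding transcripts of Tenc1, Tln1 and Fermt2 measure 4718, 8393 and 3293 bases. With the coding length correction these 3 stood at -1.24, -0.72 and -0.90 (limma adjusted p = 0.256, 0.353 and 0.168). Fermt2 and the talin gene Tln2 also met the selection rule, at low levels of 3.56 ± 0.280 and 1.17 ± 0.0687 FPKM in controls (SD, n = 3). The list of Uhmk1 substrates and splice-site partners had 9 tested genes, 0 called and 2 with an unadjusted p under 0.05, with a median of 0.14. In it Stmn1, U2af1l4 and U2af1 were at 0.64, 0.49 and 0.60 (limma adjusted p = 0.125 to 0.197), and each turned negative with rescaling or with the coding length correction. Of the relatives of Heca and Megf9, 3 could be tested and 0 were called. Unk, whose fly homologue unkempt acts together with headcase, was at -1.04 (SE 0.435, limma adjusted p = 0.175), and Unkl at 0.22. Unkl turned to -0.31 with rescaling.

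**Figure D5:**
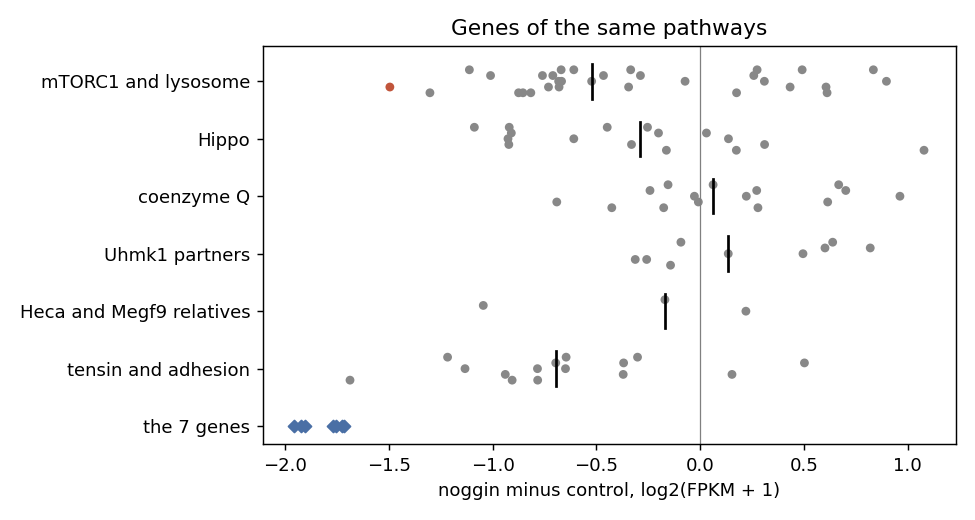
Log2 fold change (horizontal axis, FPKM + 1) of the tested genes of 6 pathway lists, with list medians as black bars, called genes in red and others in grey, and the 7 genes as blue diamonds without a test. Tsc2, at -1.49, is the called gene, and none of the lists has a median below -0.70.

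The genes whose profile over the 6 libraries was nearest to the mean profile of the 7, by Euclidean distance of centred log2(FPKM + 1) values, were Kit at 0.356, Aldh4a1 at 0.380, Bmpr1b at 0.446, Tom1l2 at 0.468 and Acot11 at 0.524. For scale, the 7 genes themselves lay at 0.280 (Wwc1) to 0.998 (Gpr155) from that mean. Kit, a receptor tyrosine kinase, was at 32.4, 37.6 and 43.2 FPKM in the control replicates and 6.59, 10.3 and 9.47 FPKM in the noggin replicates. Aldh4a1, a mitochondrial enzyme of proline breakdown, kept 29.7% of its control level of 31.8 ± 3.96 FPKM (SD, n = 3). Tom1l2, an endosomal sorting adaptor, kept 29.6%, and Acot11, an acyl-CoA thioesterase, 27.7%. All 5 met the selection rule, and nearness here means a like pattern in the same libraries.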

How the data were processed

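RNA was measured in 3 control and 3 noggin libraries, grouped by their titles. Per the labels' protocols, DNase-treated total RNA was made into cDNA libraries by SMART-Seq and read single-end, with no statement that strand was kept. The authors deposited FPKM values, 1 column per library, with no pooling. Per the submitters' processing notes, bcl2fastq, FastQC 0.10.0 and the mm10 build were used. No source used here names the aligner, quantifier or annotation, and the depth is unknown.

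The 10644 genes that reached 1 FPKM in 3 or more libraries were tested with limma 3.58.1 in R 4.3.3 on log2(FPKM + 1), two-sided, with a mean-variance trend and group as the only term. The fit was tested on simulated data. All 7 genes passed the filter. The 7 genes and the gene lists were chosen with earlier results of these data known. The motifs and the coding length correction were chosen after the data were seen. Named genes were the 7, Nog, Atp4a and Atp4b, up to 3 genes of each list by p (1 such gene is not reported here), the 5 nearest profiles and the 4 genes at the edge of the rule. Cdc42bpa, the marker genes, Depdc5 and Tln2 were named after their values were seen. Symbols were matched to GENCODE M21: 20919 by symbol, 1915 by an older symbol (Adck3 among them), and 450 had no match. All 7 genes had a RefSeq promoter. No pair of libraries was a copy, since each pair differed in at least 16505 genes. Alternatives were another pseudocount, other filters, rescaling, quantile normalization, length corrections, the replicate block, no trend, and each library left out.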

Additional observations from a re-analysis of the deposited data

How the results depend on the processing

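The 7 genes were lower in noggin libraries in all 91 combinations of gene and alternative that were run, and 73 of these moved by less than 1 SD. Leaving out a library or changing the pseudocount cannot turn the sign, because every noggin library lay below every control library. Changing the filter leaves the values of the 7 as they were. These counts are thus no measure of how firm the differences are. The median of the 7 differences, -1.77, was -2.12 with a pseudocount of 0.1, -2.44 with libraries rescaled to one total, where the median of all tested genes also moved from -0.03 to -0.63, and -1.35 with the coding length correction. The median of the 7 was -1.60 with the length correction by median transcript. Leaving out 1 library at a time gave medians from -1.95 to -1.63. Calls over all genes, 186 higher and 74 lower, depended on the settings: 85 and 26 with the pseudocount of 0.1, 8 and 4 with no filter, 130 and 820 after rescaling, 231 lower with quantile normalization, 96 and 23 with the coding length correction, 66 and 17 with no mean-variance trend. The length correction by median transcript gave 132 higher and 57 lower. Leaving out 1 library gave 4 to 1187 higher and 5 to 825 lower, with the fewest without control replicates 1 and 3 and the most without noggin replicate 2. With the replicate block there were 128 higher and 32 lower and the call of Tsc2 was lost. Same-numbered libraries had correlations of deviations of 0.105, -0.141 and 0.005, against -0.129 to 0.12 for the other pairs. No pairing by number was seen, but 3 libraries per group are too few to settle it.

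The number of genes that met the selection rule, 142, was 363 with no filter, 69 with a filter of 5 FPKM, 605 after rescaling, 52 with the coding length correction (of 10159 genes with a coding transcript, where 131 met it uncorrected) and 150 to 721 with 1 library left out. With the length correction by median transcript, 137 of 10542 genes met the selection rule. The mirrored rule, 213 genes, was met by 338, 133 and 101 with no filter, the filter of 5 FPKM and rescaling, and by 247 to 562 with 1 library left out. Leaving out a library cannot lower either count, because both rules compare the extreme values of the groups. Related genes called lower, 1 in the text, were 0 with the pseudocount of 0.1, no filter, the coding length correction, the replicate block or no trend, 9 after rescaling, and 0 to 11 with 1 library left out. Related genes called higher, 0 in the text, were 1 with the filter of 5 FPKM and 0 to 6 with 1 library left out. Signs that turned were those of Coq10b (-0.0114), Coq7 (-0.0119), Lamtor3 (-0.10), Stmn1 (-0.0724), U2af1l4 (-0.21), U2af1 (-0.11), Unkl (-0.31) and Atp4b (-0.50) with rescaling. With the coding length correction Stmn1 (-0.0283), U2af1l4 (-0.28), U2af1 (-0.0744) and Atp4b (-0.26) turned. With quantile normalization Atp4b (-0.56) turned. Unkl ran, with 1 library left out, from -0.18 (without noggin replicate 3) to 0.47. The cause of these shifts was not tested, and unknown depth limits what can be said of low values.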
